A study of Mus musculus with 8 samples.

Results

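Dpt, which encodes dermatopontin, and 8 genes of small leucine-rich proteoglycans (Ogn, Dcn, Lum, Bgn, Fmod, Prelp, Omd and Aspn) were followed across AV cushion and ventricle of mouse hearts. These 9 genes were chosen by name from 22869 symbols in the count table, after Dpt had been seen to fall and Ogn to rise in mutant cushions, so their values in that comparison are given as a description with no test. All 9 passed the filter on low counts, which kept 14940 symbols. RNA came from C57BL/6 embryos at E12.5 and was sequenced as total RNA after removal of ribosomal RNA. The 8 libraries formed 4 groups of 2, one for each genotype in each of the tissues. The mutants carry the genotype label NfatC1+/-; KLF2fl/fl. Their controls are labelled wild type, while the series' design text names KLF2 fl/fl mice as the other genotype, so the controls may share the floxed Klf2 alleles. The labels name no recombinase and do not say whether +/- marks loss of an Nfatc1 copy, so the mutants may differ from controls in Nfatc1 as well as in Klf2. Nor do they tell whether replicate libraries stem from different embryos, and p-values then measure the spread between these libraries, which may be technical. With 1 row kept per symbol, library totals lay between 18955733 and 26579215 counts, against 26562828 to 37694738 over all rows. Levels are given in CPM, counts scaled for the size of each library.

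Small leucine-rich proteoglycans are secreted matrix proteins whose core of leucine-rich repeats binds collagen fibrils and sets their spacing and thickness. Several of them carry chondroitin, dermatan or keratan sulfate chains, and decorin and biglycan also bind growth factors such as TGF-beta. Dermatopontin is a small tyrosine-rich matrix protein of another fold that binds decorin and promotes collagen fibril assembly. AV cushions hold the mesenchyme from which valve leaflets form, with a matrix of collagen and proteoglycans.

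The 8 proteoglycan genes and Dpt lie at 5 places in the mouse genome. In RefSeq's annotation of GRCm38, Aspn, Omd and Ogn follow Ecm2 next to each other on chromosome 13, Dcn and Lum are neighbours of Kera and Epyc on chromosome 10, and Prelp and Fmod are neighbours of Optc on chromosome 1. Dpt lies elsewhere on chromosome 1 and Bgn on chromosome X. Promoters of 7 of the 9 genes were found in the RefSeq table of build GRCm38.p6, each window holding 250 bases before and 50 after the annotated start. The windows of Dpt (chr1:164796413-164796712, plus strand), Ogn (chr13:49607765-49608064, plus strand) and Omd (chr13:49582212-49582511, plus strand) are shown because Dpt and Ogn moved in opposite directions in mutant cushions and because all 3 share a stretch of letters. Capitals mark matches on either strand to CACCC (letters that Klf factors are known to bind), to TATAAA (the TATA box) and to CTTTGA (letters bound by TCF and LEF factors of WNT signalling), and the shared stretch GAATTCCAC with its extension in Dpt and Omd.
Dpt: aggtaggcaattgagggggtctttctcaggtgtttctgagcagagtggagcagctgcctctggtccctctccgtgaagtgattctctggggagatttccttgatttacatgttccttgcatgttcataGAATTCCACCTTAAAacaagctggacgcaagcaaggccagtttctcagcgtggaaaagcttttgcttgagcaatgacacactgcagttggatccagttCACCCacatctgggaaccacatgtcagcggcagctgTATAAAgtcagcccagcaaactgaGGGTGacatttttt
Ogn: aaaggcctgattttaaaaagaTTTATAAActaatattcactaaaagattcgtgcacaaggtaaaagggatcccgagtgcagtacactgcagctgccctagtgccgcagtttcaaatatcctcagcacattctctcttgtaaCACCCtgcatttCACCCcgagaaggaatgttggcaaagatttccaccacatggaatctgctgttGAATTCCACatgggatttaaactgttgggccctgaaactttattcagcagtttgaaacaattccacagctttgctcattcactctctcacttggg
Omd: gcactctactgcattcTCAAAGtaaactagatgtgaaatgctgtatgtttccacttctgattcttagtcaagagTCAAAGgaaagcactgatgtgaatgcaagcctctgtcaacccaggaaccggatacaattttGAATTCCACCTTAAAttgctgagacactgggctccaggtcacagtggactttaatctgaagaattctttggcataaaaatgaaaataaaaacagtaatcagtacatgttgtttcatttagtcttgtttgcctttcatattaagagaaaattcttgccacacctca
The Dpt window holds CACCC at 2 places, the first of which begins 24 bases before the annotated start, and TATAAA once, beginning at base 13 after it. The Ogn window also holds CACCC at 2 places, beginning 109 and 97 bases before the start, and the Omd window holds none. CACCC was found in 57.5% of the 32851 promoter windows of this length, so its presence sets none of these genes apart. CTTTGA was found in neither Dpt nor Ogn and at 2 places in Omd, against 16.0% of all windows with at least 1 match. TATAAA was found in 13.6% of all windows, at 1 place in Dpt, and in Ogn at 2 overlapping places on opposite strands. The letters GAATTCCAC are the longest run shared by the windows of Dpt, Ogn and Omd. They were taken from these windows and not searched for in advance, so their presence there was fixed. They were found in 60 of the 32851 windows (0.183%), those of Dpt, Ogn and Omd included. The longer run GAATTCCACCTTAAA, taken in the same way from Dpt and Omd, was found in 2 of the 32851 windows, those of Dpt and Omd. How often other windows share runs of such length was not counted, so these shares are a description. A match of letters is a description and not a binding site.

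Klf2, the gene the mutation targets, was at 17.3 and 12.9 CPM in wild type cushions, 1.96 and 0.651 CPM in mutant cushions, 11.7 and 9.19 CPM in wild type ventricles and 0.735 and 0.625 CPM in mutant ventricles. It was low in every mutant library. Nfatc1 was at 35.9 and 22.1 CPM in wild type cushions and at 24.9 and 15.2 CPM in mutant cushions, and these groups overlapped. None of the 6 markers of cushion mesenchyme fixed for the check was at 0 in any library, and their summed level was 6173 to 13780 CPM in cushions and 1102 to 3559 CPM in ventricles. Cardiomyocyte markers were present in cushion libraries too, at a summed level of 30520 to 47430 CPM, against 44970 to 102900 CPM in ventricles. Ttn alone made up 12546 to 29509 CPM of the cushion sums and 10596 to 70715 CPM of the ventricle sums. Averaged over genotypes, 6 of the 8 markers had a lower fitted level in cushion and 2, Myl7 and Myh6, a higher one. On the first principal component, mutant cushion replicate 2 lay at -22.8, away from the remaining cushions at -54.9 to -46.3.

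Most of these genes were more abundant in cushion than in ventricle, by folds from 1.98 for Fmod to 36.7 for Dpt. The plot of levels by library shows which were not. Averaged over genotypes, 6 of the 9 genes were higher in cushion, Ogn was lower, and Dcn and Omd did not pass (edgeR's quasi-likelihood test, Benjamini-Hochberg adjustment over all genes tested). Over all genes tested, 15.3% were higher in cushion and 13% lower by the same rule. This comparison gives both cushion groups equal weight, so it does not rest on the genotype difference that chose the genes. The median log2 fold change of the 9 genes was 1.61, against 0.01 over all genes tested. In 6 of the 9 genes all 4 cushion libraries lay above all 4 ventricle libraries, as in 16% of all genes tested, and in none did they all lie below.

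**Figure D1:**
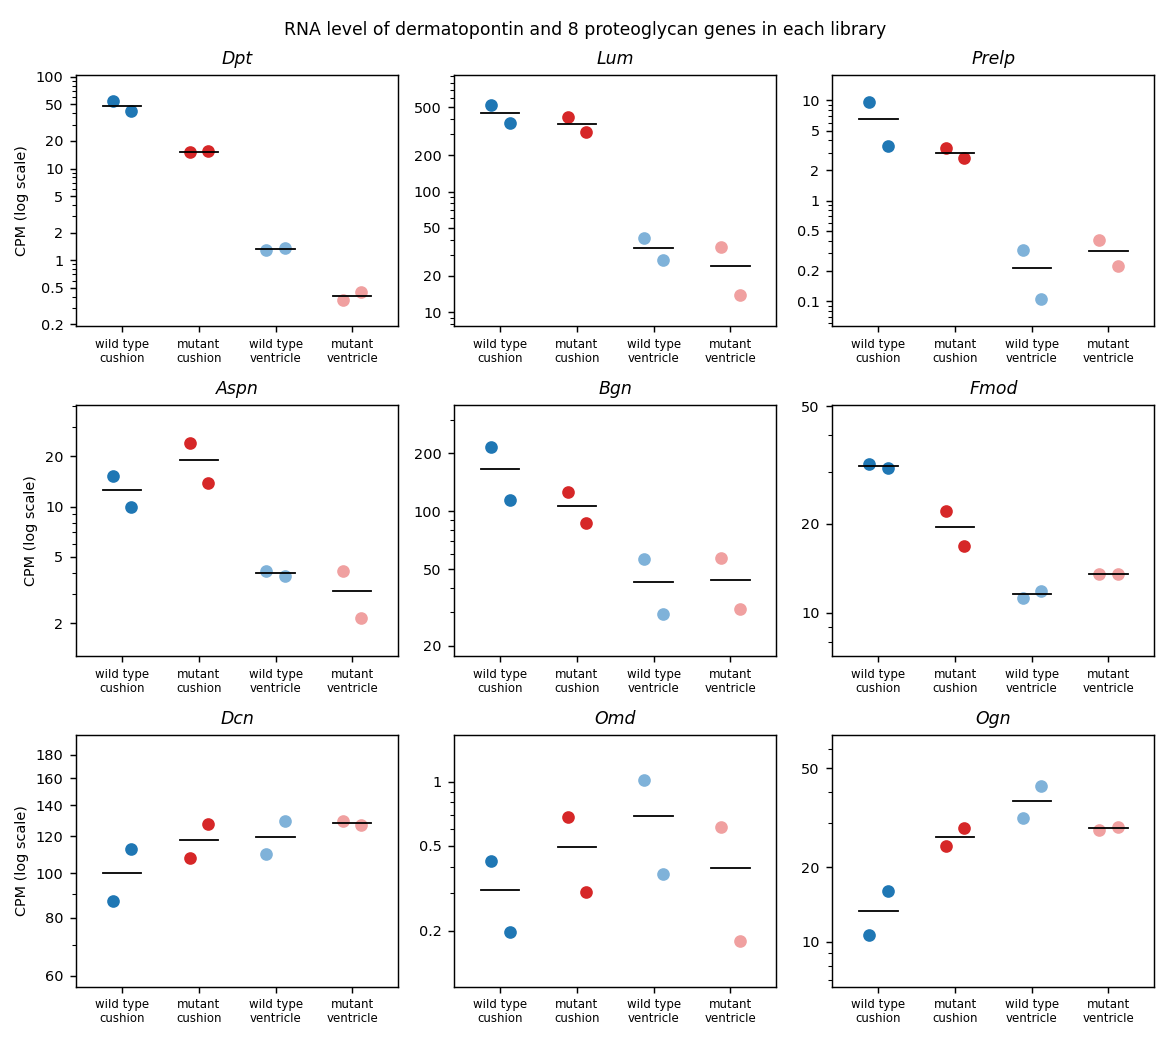
RNA level in CPM, on a log axis, of Dpt and the 8 proteoglycan genes in each of the 8 libraries, with 1 panel per gene. Points are libraries (replicate 1 left, replicate 2 right), and the line is the mean of each group of 2. In Dpt, Lum, Prelp, Aspn, Bgn and Fmod the 4 cushion libraries all lie above the 4 ventricle libraries, while in Dcn, Omd and Ogn they do not.

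Dpt was the gene of this group with the largest tissue difference. It was at 55.0 and 41.9 CPM in wild type cushions and 15.0 and 15.5 CPM in mutant cushions, against 1.28 and 1.37 CPM in wild type ventricles and 0.368 and 0.447 CPM in mutant ventricles. The 4 groups did not overlap at any point of this order. Dpt was 36.7-fold higher in cushion, a log2 fold change of 5.20 ± 0.16 (SE, 8 libraries) with an adjusted p of 3.89e-06. The tissue difference was of like size in each genotype, with a log2 fold change of 5.18 ± 0.22 (SE) in wild type and 5.22 ± 0.25 (SE) in mutants.

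Among the proteoglycans of the keratan sulfate class, Lum (lumican, a regulator of fibril diameter in transparent and loose connective tissue) led the 9 genes in cushions, also per length of transcript. Its level was at 519 and 373 CPM in wild type cushions, 417 and 312 CPM in mutant cushions, 41.0 and 27.1 CPM in wild type ventricles and 34.8 and 13.8 CPM in mutant ventricles. The genotypes overlapped in both tissues and the tissues were far apart, with Lum 14.0-fold higher in cushion (log2 fold change 3.81 ± 0.35 SE, adjusted p = 7.30e-04). Prelp, which encodes a proteoglycan with a basic heparin-binding end, was at 9.63 and 3.52 CPM in wild type cushions and 3.34 and 2.65 CPM in mutant cushions. In ventricles it had between 2 and 10 reads per library, so that its fold there is loosely known. Prelp was 16.6-fold higher in cushion (log2 fold change 4.06 ± 0.46 SE, adjusted p = 5.64e-04). With so few ventricle reads, Prelp passed the filter on low counts only through the cushion libraries, where it was high. Its call and its place among the genes higher in cushion are not independent of that. Fmod (fibromodulin, which binds type I collagen and takes part in its cross-linking) differed less. It was at 32.0 and 30.8 CPM in wild type cushions, 22.1 and 16.9 CPM in mutant cushions, 11.3 and 11.8 CPM in wild type ventricles and 13.5 and 13.6 CPM in mutant ventricles. The replicates of Fmod lay close together in 3 of the 4 groups, and it was 1.98-fold higher in cushion (log2 fold change 0.98 ± 0.12 SE, adjusted p = 5.77e-04). By genotype, its tissue log2 fold change was 1.44 ± 0.17 (SE) in wild type and 0.52 ± 0.16 (SE) in mutants. Omd (osteomodulin, a proteoglycan best known from bone) had 4 to 19 reads per library and was at the limit of counting in both tissues, with a log2 fold change of -0.45 ± 0.55 (SE) and an adjusted p of 0.591.

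Of the genes of the decorin-like class, Bgn and Aspn were cushion-enriched and Dcn was not. Bgn (biglycan, which carries chondroitin or dermatan sulfate chains) was at 216 and 115 CPM in wild type cushions, 126 and 86.8 CPM in mutant cushions, 56.2 and 29.1 CPM in wild type ventricles and 56.96 and 31.1 CPM in mutant ventricles. It was 3.06-fold higher in cushion (log2 fold change 1.61 ± 0.35 SE, adjusted p = 0.0193), a call that ended on leaving out wild type cushion replicate 1 (adjusted p = 0.0587), mutant cushion replicate 1 (0.0722) or mutant ventricle replicate 2 (0.0569). With the replicate number as a block, edgeR's test gave Bgn a tissue log2 fold change of 1.64 ± 0.09 (SE, adjusted p = 3.09e-09). By genotype and without the block, the tissue log2 fold change of Bgn was 1.955 ± 0.50 (SE) in wild type and 1.27 ± 0.49 (SE) in mutants. Aspn encodes asporin, a protein with a run of aspartates in place of the chains. It was at 15.2 and 9.93 CPM in wild type cushions and 24.1 and 13.9 CPM in mutant cushions. In ventricles it was at 4.12 and 3.85 CPM in wild type and 4.09 and 2.14 CPM in mutants. Its cushion libraries lay above all ventricle libraries, and it was 4.36-fold higher in cushion (log2 fold change 2.13 ± 0.27 SE, adjusted p = 0.00109). Dcn (decorin, which binds collagen and TGF-beta) was at 87.1 and 112.6 CPM in wild type cushions, 107.8 and 127.9 CPM in mutant cushions, 109.9 and 129.8 CPM in wild type ventricles and 129.4 and 127.2 CPM in mutant ventricles. Its 8 libraries spanned a narrow range with the tissues overlapping, and its log2 fold change of -0.19 ± 0.12 (SE) did not pass (adjusted p = 0.254). With the replicate number as a block and a correction for GC content and length it was lower in cushion (log2 fold change -0.22, adjusted p = 0.0148).

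Ogn (osteoglycin, also called mimecan, a proteoglycan of collagen-rich tissues) ran the other way. It was at 10.6 and 16.0 CPM in wild type cushions, 24.3 and 28.7 CPM in mutant cushions, 31.6 and 42.3 CPM in wild type ventricles and 28.2 and 29.1 CPM in mutant ventricles. The wild type cushion libraries were the lowest and the wild type ventricle libraries the highest, while mutant cushions and mutant ventricles overlapped. Ogn was lower in cushion averaged over genotypes, with a log2 fold change of -0.79 ± 0.16 (SE) and an adjusted p of 0.00649. By genotype, the tissue log2 fold change was -1.47 ± 0.23 (SE) in wild type and -0.11 ± 0.22 (SE) in mutants. Of its neighbours on chromosome 13, Aspn was higher in cushion and Omd was near the limit of counting. Ecm2, named here for its position after its values were seen, had a tissue log2 fold change of 0.00 ± 0.14 (SE) at 9.51 to 12.9 CPM in all 8 libraries.

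Because of these differences the make-up of the proteoglycan reads, not scaled for transcript length, differed between tissues. The summed level of the 8 proteoglycan genes was 589 to 890 CPM in cushions and 217 to 268 CPM in ventricles. Lum accounted for 53.0% to 58.3% of these reads in cushions and for 6.35% to 16.1% in ventricles, and Dcn for 9.79% to 21.7% and 43.0% to 58.5%. Ogn accounted for 1.19% and 2.43% in wild type cushions, 3.35% and 4.87% in mutant cushions and 10.5% to 17.3% in ventricles. There were 5.95 and 3.31 Lum reads per Dcn read in wild type cushions and 3.87 and 2.44 in mutant cushions, against 0.109 to 0.373 in ventricles.

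**Figure D2:**
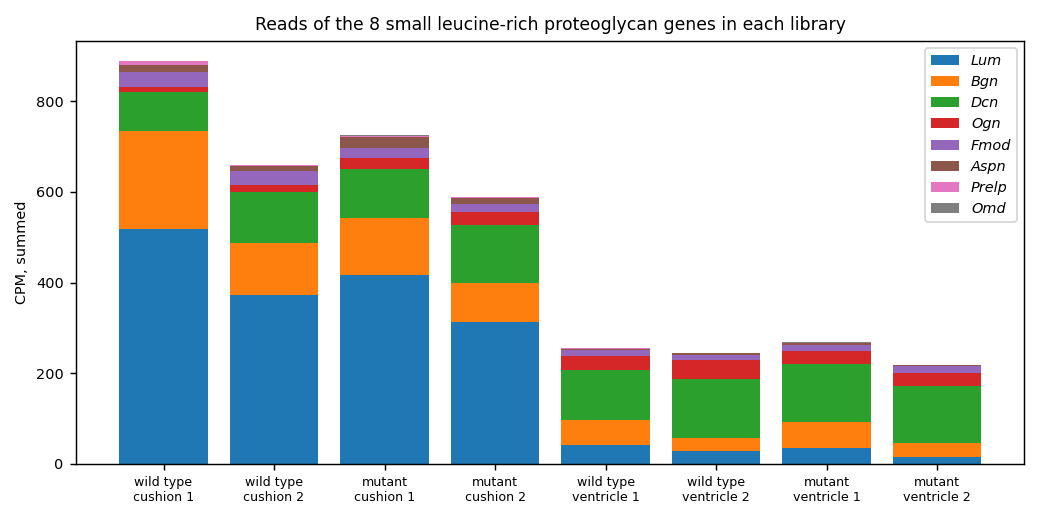
Summed level in CPM of the 8 small leucine-rich proteoglycan genes in each of the 8 libraries, with 1 stacked bar per library and 1 colour per gene. Lum is the largest piece of each cushion bar (589 to 890 CPM in all) and Dcn of each ventricle bar (217 to 268 CPM in all).

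Per kilobase of the longest annotated transcript, which makes levels comparable between genes, the order also changed. In wild type cushions Lum stood first at 182 ± 42.1 CPM per kilobase (SD, n = 2), Bgn followed at 62.1 ± 26.8, Dpt at 28.1 ± 5.38 and Dcn at 21.3 ± 3.85. The ranges of Lum and Bgn did not overlap, and those of Dpt, at 24.3 to 31.9, and Dcn, at 18.6 to 24.0, nearly touched. Fmod, at 10.06 ± 0.271 CPM per kilobase, came next, and Aspn (5.39 ± 1.59) and Ogn (5.19 ± 1.49) were not distinct from each other, above Prelp at 1.82 ± 1.19 and Omd at 0.138 ± 0.0707. In mutant cushions Lum, Bgn and Dcn led, at 149, 39.9 and 25.1 CPM per kilobase, and Ogn (9.46 to 11.2), Dpt (8.71 to 9.02) and Aspn (5.98 to 10.3) were close, the range of Aspn overlapping both others. In wild type ventricles Dcn stood first at 25.5 ± 3.0 CPM per kilobase, and Bgn, Ogn and Lum, at 16.0, 14.4 and 13.9 CPM per kilobase, overlapped. Dpt was at 0.770 ± 0.0369 CPM per kilobase there and at 0.236 ± 0.0323 in mutant ventricles, above the range of Prelp in both and above that of Omd in wild type.

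Mutant against wild type cushion is the contrast that singled out Dpt and Ogn, and its values are a description. On average Dpt was 0.315 times and Ogn 1.99 times its wild type level in mutants, with log2 fold changes of -1.67 ± 0.17 (SE) and 0.99 ± 0.22 (SE). For both genes the mutant and wild type libraries did not overlap, at the levels given above. Of all genes tested, 0.194% had a cushion log2 fold change at or below that of Dpt and 1.02% had one at or above that of Ogn. The number of Ogn reads per Dpt read was 0.193 and 0.382 in wild type cushions and 1.62 and 1.85 in mutant cushions. In ventricles it was 24.7 and 30.9 in wild type and 76.7 and 65.1 in mutants. Leaving out wild type cushion replicate 1 gave a log2 fold change of -1.47 for Dpt and 0.71 for Ogn, and leaving out wild type cushion replicate 2 gave -1.85 and 1.32.

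The other proteoglycans divided in the same comparison. Fmod had a log2 fold change of -0.69 ± 0.16 (SE) and Prelp of -1.13 ± 0.48 (SE), and in both the mutant libraries lay below the wild type ones. Bgn had -0.64 ± 0.48 (SE), Lum -0.29 ± 0.44 (SE), Dcn 0.24 ± 0.17 (SE), Aspn 0.60 ± 0.35 (SE) and Omd 0.68 ± 0.80 (SE), all with overlapping libraries. Together, 3 of the 9 genes lay lower in both mutant cushions, 1 lay higher and 5 overlapped. Among all genes tested 23.9% lay lower and 24.5% higher, or 48.4% in either direction, and 0% were called in edgeR's quasi-likelihood test. Compared within each replicate number, a reading chosen after the data were seen, Dpt, Fmod, Prelp, Bgn and Lum were lower in the mutant in both pairs and Ogn, Aspn, Dcn and Omd higher in both. Over all genes tested, 34.8% were lower and 34.7% higher in both pairs. With the replicate number as a block, 0.569% of all genes were called lower, Dpt, Fmod and Bgn among them, and 0.295% higher, Ogn among them. When a correction for GC content and length was added to the block, Dpt stayed called, while Fmod, Bgn and Ogn did not. The genes were chosen from this contrast, so these calls are no test of them. The median log2 fold change of the 9 genes was -0.29, against -0.01 over all genes tested.

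**Figure D3:**
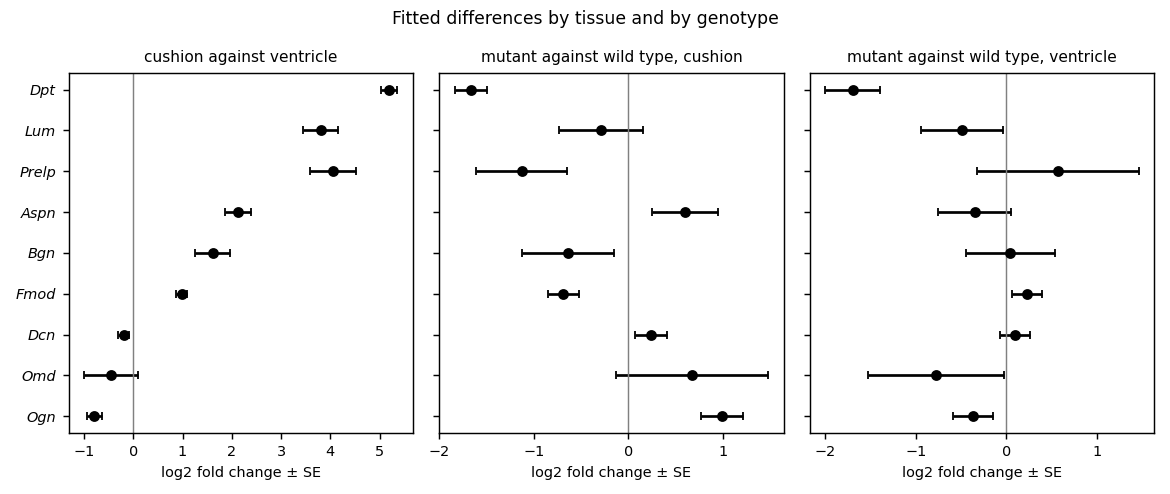
Fitted log2 fold changes with standard errors of the 9 genes, for cushion against ventricle averaged over genotypes (left), mutant against wild type cushion (middle) and mutant against wild type ventricle (right). Dpt lies near -1.7 in both genotype panels and at 5.20 in the tissue panel, and Ogn lies at 0.99 in cushion and at -0.37 in ventricle.

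In cushions the fold change ran with the GC content of the transcript across all genes, with a Spearman rho of -0.607 over 14748 genes, which are not independent replicates. The 9 genes differ widely in GC content. Aspn, Omd, Ogn and Dcn, at 34.4%, 36.1%, 36.3% and 37.4% GC, are the 4 with a cushion log2 fold change above 0. Lum, Dpt, Bgn, Fmod and Prelp, at 41.9%, 48.7%, 51.2%, 53.7% and 53.8%, are the 5 below 0. When GC content and transcript length were corrected for, an analysis chosen after the data were seen, the log2 fold change of Dpt was -1.75 and that of Ogn 0.55. That of Aspn moved to 0.09, that of Omd to 0.23 and that of Dcn to -0.10, a change of sign. Lum moved to -0.55, Fmod to -0.53, Prelp to -0.97 and Bgn to -0.61. What part GC content has in the cushion values of Ogn, Aspn, Omd and Dcn was not tested.

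**Figure D4:**
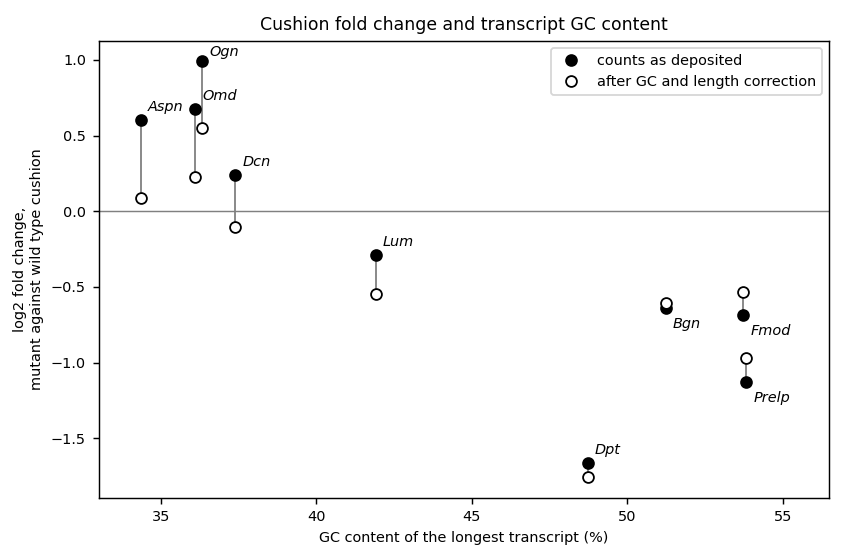
Log2 fold change of mutant against wild type cushion (vertical axis) against the GC content of the longest annotated transcript (horizontal axis) for the 9 genes. Filled points are from the counts as deposited and open points from the fit with a correction for GC content and length, joined by a line. Ogn falls from 0.99 to 0.55 and Aspn from 0.60 to 0.09, and Dpt stays near -1.7.

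The fitted values of several cell type marker lists ran with the cushion genotype, though no marker of these lists passed edgeR's quasi-likelihood test, and with the replicate number as a block 1 epicardial marker (higher) and 1 of fibroblasts (lower) did. All 6 markers of cushion mesenchyme had a log2 fold change below 0, with a median of -0.38, and the libraries of Postn and Msx1 did not overlap. Their summed level was 6173 and 9844 CPM in mutant and 6337 and 13780 CPM in wild type cushions. The 3 tested markers of fibroblasts and tendon-like cells were also below 0, with a median of -0.78, and the libraries of Scx did not overlap. Of the 6 epicardial markers 5 were above 0, with a median of 0.55, and their summed level was 260.8 and 329.9 CPM in mutant against 191.2 and 232.8 CPM in wild type cushions. Tbx18 alone made up 110.8 and 155.6 CPM of the mutant sums. All 5 leukocyte markers were above 0, with a median of 0.49, at a summed 106.8 to 147.8 CPM in mutant and 74.2 to 108.5 CPM in wild type cushions, and all 5 erythroid markers, with a median of 0.58. No marker of these lists was at 0 in cushions except Tnmd. In ventricles 4 of these 5 lists ran the same way between genotypes. All 6 mesenchyme markers were below 0 there (median -0.36). Above 0 were 5 of 6 epicardial markers (median 0.16), all 5 leukocyte markers (0.22) and all 5 erythroid markers (0.23). Fibroblast and tendon-like markers differed, with 2 of 3 above 0 (median 0.28). Of the 6 markers of endothelium and endocardium, 4 were above 0 in cushions (median 0.14) and all 6 in ventricles (median 0.23), and none passed. The part of these cell types in the values of the 9 genes was not tested. In whole tissue, fewer cells of a type and less RNA per cell cannot be told apart.

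Mutant against wild type ventricle compares libraries other than the cushion ones by which Dpt and Ogn were singled out. Earlier results of these data were known when the genes were chosen, so this contrast is not shown to be independent of the choice. None of the 9 genes passed, and neither did any of the other genes tested in edgeR's quasi-likelihood test (0% of 14940, with 342 at an unadjusted p under 0.05, 1 gene called by DESeq2 and none by limma-voom). Dpt had the largest fold change of the 9, at 0.308 times its wild type level. It was counted with 24 and 26 reads in wild type and 9 and 10 reads in mutant ventricles. The exact 95% Poisson intervals, which cover counting error only, run from 0.823 to 1.91 CPM and 0.898 to 2.01 CPM in wild type and from 0.168 to 0.699 CPM and 0.214 to 0.822 CPM in mutants, and they do not overlap between the genotypes. The log2 fold change was -1.70 ± 0.30 (SE), with an unadjusted p of 3.45e-04 and an adjusted p of 0.998 (0.452 with the replicate number as a block). Both mutant libraries were lower than both wild type libraries. Set beside the cushion value of -1.67, the difference between the tissues was 0.03 ± 0.25 (SE) on the log2 scale.

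Ogn had a ventricle log2 fold change of -0.37 ± 0.22 (SE, adjusted p = 0.998), with both mutant libraries below the wild type ones, where in cushions both were above. In ventricle the fold change of all genes ran with GC content the other way, with a Spearman rho of 0.458, and the GC and length correction moved Ogn to -0.16 and Dpt to -1.72. Fmod had 0.23 ± 0.17 (SE, adjusted p = 0.998), with both mutant libraries above the wild type ones, where in cushions both were below. The other 6 genes overlapped between the genotypes in ventricle. Their log2 fold changes were 0.57 ± 0.89 (SE) for Prelp, 0.10 ± 0.16 for Dcn, 0.05 ± 0.49 for Bgn, -0.35 ± 0.40 for Aspn, -0.49 ± 0.45 for Lum and -0.78 ± 0.75 for Omd. In all, 2 of the 9 genes lay lower in both mutant ventricles and 1 higher, where 14.6% of all genes tested lay lower and 13.1% higher, or 27.7% in either direction. Within the replicate pairs, 5 of the 9 genes were lower in both, 3 higher in both and Dcn mixed, against 29.4% and 27.4% of all genes tested. With the replicate number as a block 1 gene was called, none of the 9 (0.00669% of all genes tested).

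The libraries numbered 1 and 2 differed in some of these genes in the same direction in all 4 groups. Lum, Bgn, Prelp, Aspn and Omd were higher in replicate 1 than in replicate 2 in 4 of 4 groups, with ratios from 1.07 for Aspn to 3.43 for Omd, and Ogn was lower in 4 of 4, with ratios from 0.662 to 0.970. Dpt was higher in replicate 1 in 1 of 4 groups. For Bgn the ratio was 1.45 to 1.93, beside cushion group means of 165.6 CPM in wild type and 106.3 CPM in mutants. The labels do not say what the numbers mark.

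Genes most like Dpt and Ogn were sought among those with a mean of at least 1 CPM, by the root mean square difference of log2 CPM centred on each gene over the 8 libraries. The 5 nearest to Dpt were Mstn, Btn1a1, Matn4, Dpysl4 and Oprk1, at 0.58 to 0.72 on the log2 scale. Mstn (myostatin, a secreted growth factor that limits muscle mass) had means of 108.9 CPM in wild type and 60.7 CPM in mutant cushions, and 5.45 and 2.33 CPM in the ventricles. Matn4 (matrilin 4, a matrix adaptor protein) had 15.8, 8.001, 0.347 and 0.273 CPM in the same order. This difference is not scaled for how much a gene varies between libraries, and Dpt varies far more than Ogn. Its size therefore cannot be compared between Dpt and Ogn, and it runs smaller among genes that vary little. The 5 nearest to Ogn lay at 0.15 to 0.18. They were Idi1 (an enzyme of cholesterol synthesis), the small nucleolar RNAs Snord22 and Snord16a, and the predicted genes Gm13212 and Gm13157. Snord22 had means of 5.10, 9.27, 14.3 and 12.49 CPM. Among the 9 genes themselves the closest pair was Ogn and Dcn, at 0.44, and the next Bgn and Fmod, at 0.52, while Dpt was nearest to Lum, at 0.93.

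Of 9 other listed genes of the family (Epyc, Kera, Optc, Chad, Chadl, Nyx, Tsku, Podn and Podnl1), 4 passed the filter on low counts, and Kera, Chad, Nyx, Podn and Podnl1 had at most 12 reads in any library. Tsku (tsukushi, a secreted inhibitor of BMP and WNT ligands) had the most reads. Its level was 19.2 ± 1.36 CPM in cushions of wild type embryos and 14.7 ± 3.38 CPM in those of mutants, and 7.04 ± 1.23 and 7.88 ± 0.283 CPM in the ventricles (SD, n = 2 for each). Tsku was higher in cushion (log2 fold change 1.17 ± 0.15 SE, adjusted p = 8.24e-04). So was Epyc (epiphycan, known from growth cartilage), with 1 to 34 reads per library (1.93 ± 0.56 SE, adjusted p = 0.0323). Like Prelp, Epyc passed the filter on low counts only through its cushion libraries. The call of Epyc ended with limma-voom (adjusted p = 0.0526) and on leaving out any 1 library but wild type cushion replicate 2 or mutant cushion replicate 2 (0.0520 to 0.127). Chadl and Optc had tissue log2 fold changes of 0.22 and -0.07 and did not pass. Thus 2 of the 4 were higher in cushion and 0 lower, where 15.3% of all genes tested were higher and 13% lower. In mutants against wild type ventricles none of the 4 passed.

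Some of the genes for collagens and their fibril partners were higher in cushion. Of 21 listed collagens and fibril partners 20 were tested, of which 10 were higher in cushion and 0 lower, or 18 and 0 when the replicate number was a block, where 15.3% of all genes tested were higher, or 22.3% with the block. Col1a1 and Col1a2, the chains of collagen I, had adjusted p-values of 0.0889 and 0.066 and did not pass without the block. The median log2 fold change of the 20 tested genes was 1.30, against 0.01 over all genes tested. Leaving out mutant ventricle replicate 2 left 6. Col6a1 and Col6a2, subunits of the beaded collagen VI that decorin and biglycan bind, had tissue log2 fold changes of 1.52 ± 0.12 (SE, adjusted p = 8.80e-05) and 1.15 ± 0.14 (SE, adjusted p = 6.31e-04). Bmp1 (a protease that matures procollagens and several of these proteoglycans) had 1.29 ± 0.18 (SE, adjusted p = 0.00148), and Adamts2 (a procollagen N-proteinase) 2.71 ± 0.45 (SE, adjusted p = 0.00592). In mutant against wild type ventricles 0 of the 20 passed, and the median was 0.16. In mutant against wild type cushions their median was -0.30.

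Of 22 listed genes of chondroitin and dermatan sulfate synthesis 21 were tested, of which 12 were higher in cushion and 0 lower, with a median log2 fold change of 0.51 against 0.01 over all genes tested. The other 9 did not pass, and 3 of the 21 had a log2 fold change below 0 (Fam20b, Csgalnact1 and Csgalnact2). With the replicate number as a block 15 were higher and 1 lower. Over all genes tested 15.3% were higher and 13% lower, or 22.3% and 20.7% with the block. Chst3 (a sulfotransferase of chondroitin chains) had a log2 fold change of 3.27 ± 0.22 (SE, adjusted p = 5.94e-05), with wild type levels of 19.6 ± 3.09 CPM in cushion and 1.89 ± 0.956 CPM in ventricle (SD, n = 2 for each). Chsy1 (a chain-extending synthase) had 1.27 ± 0.09 (SE, adjusted p = 7.11e-05), Dse (which turns chondroitin into dermatan units) 0.81 ± 0.08 (SE, adjusted p = 3.12e-04) and Chst11 0.66 ± 0.10 (SE, adjusted p = 0.00172). In ventricles 0 of the 21 passed between genotypes, with a median of -0.02, and the cushion median was -0.20.

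Of 5 genes for TGF-beta and BMP ligands, 4 were higher in cushion, and the median of the 5 log2 fold changes was 1.35. Over all genes tested 15.3% were higher in cushion and 13% lower, with a median of 0.01. Bmp2, the ligand by which AV myocardium is known to start cushion formation, had wild type levels of 73.1 ± 7.37 CPM in cushion and 7.50 ± 3.0 CPM in ventricle (SD, n = 2 for each), with a log2 fold change of 3.31 ± 0.29 (SE, adjusted p = 4.29e-04). Tgfb3 had 1.35 ± 0.15 (SE, adjusted p = 5.00e-04), Bmp4 1.76 ± 0.26 (SE, adjusted p = 0.00278) and Tgfb2 0.99 ± 0.21 (SE, adjusted p = 0.0119). In mutant against wild type ventricles 0 of the 5 passed. The level of cushion mesenchyme markers given above moved with all of these tissue differences, and its part in them was not tested. So did the 4 markers of fibroblasts and tendon-like cells, at a summed 671.4 to 1268 CPM in cushions and 123.2 to 230 CPM in ventricles, with the tendon marker Tnmd at 0 in 7 of 8 libraries.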

How the data were processed

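Per the labels' protocols, total RNA was purified on Qiagen micro columns, and libraries keep the strand, and Bowtie 0.12.7 and genome build mm9 are named in the submitters' processing notes. How reads were counted, with which annotation and strand setting, was not given in the sources used here. All 8 deposited tables have the same content, raw counts for all 8 libraries, and 1 was read, each column going to the sample of the same title. Of 28644 rows, those with the highest sum were used for each of 22869 symbols (Dcn and Aspn have 2 rows each). This left 18955733 to 26579215 counts per library, where all rows held 26562828 to 37694738. After scaling, 1 CPM stood for 18.7 to 25.3 reads. The replicates of a group differed by more than sampling noise (chi-square per degree of freedom 45.5 to 118.1).

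Tests on the counts used edgeR 4.0.16 (R 4.3.3) with TMM scaling, filtering by expression, a robust quasi-likelihood fit over all 8 libraries, Benjamini-Hochberg adjustment and a threshold of 0.05. The script was tested on simulated data. The deviations of replicate 1 correlated between all pairs of groups (Pearson r 0.341 to 0.522 across genes). From the data and not from the labels, the number was therefore used as a block in alternative fits and to form replicate pairs. The main tests did not use it, so their standard errors and p-values leave out such a pairing. Alternatives were DESeq2 1.42.0, limma-voom (limma 3.58.1), other scaling and filtering, summed rows, a replicate block, a GC and length correction (GENCODE vM21 transcripts, matched to 98.2% of symbols), and each library left out. All 9 genes are named. So are the 5 genes most like Dpt and Ogn and up to 4 genes of each list with the smallest p for tissue. Members and lists were chosen with earlier results of these data known. Protein sequences were not used here, and coordinates are those of the GRCm38.p6 promoter table, not of mm9.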

Additional observations from a re-analysis of the deposited data

Results flagged for a closer look

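In 2 of the 9 genes both mutant libraries lay on one side of both wild type libraries in cushion and on the other side in ventricle. The share of all genes with such opposite sides was not counted, so the number is a description. In either direction, the genotypes did not overlap in 48.4% of all genes tested in cushion and 27.7% in ventricle. For Ogn, higher in mutant cushions and lower in mutant ventricles, the cushion log2 fold change exceeded the ventricle one by 1.36 ± 0.31 (SE), or by 0.71 after the GC and length correction. For Fmod, lower in mutant cushions and higher in mutant ventricles, the same difference was -0.92 ± 0.23 (SE), or -0.68 after the correction. No p is given for either gene, because the differences hold the cushion comparison from which the genes were chosen. Over all genes, the edgeR test of this difference between tissues called 0 genes, so neither of these passed it, with or without the replicate block.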

How the results depend on the processing

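The number of genes called for tissue was 4226 (2282 higher in cushion, 1944 lower). It was 6430 with the replicate block and 7485 with the replicate block and the GC and length correction, and 2616 to 3719 on leaving out 1 library. With the correction and no block, added after the data were seen, it was 5310 (2138 higher, 3172 lower). For genotype in ventricle 0 genes were called, and 1 with DESeq2, with the replicate block, with the replicate block and the correction, or in a fit of the ventricle libraries alone, and 0 to 1 on leaving out 1 library. For genotype in cushion 0 were called, 25 with DESeq2, 5 with no filter on low counts, 129 with the replicate block, 73 with the block and the correction and 1 in a fit of the cushion libraries alone, and 0 to 1 on leaving out 1 library. For the difference of the genotype effect between cushion and ventricle 0 were called in edgeR (1776 at an unadjusted p under 0.05), DESeq2 (1325), limma-voom (1697) and with the replicate block (3594). The tissue calls of Dpt, Lum, Prelp, Aspn, Fmod and Ogn kept their direction and side of the threshold in every alternative run. The block changed the call of no member in the 2 comparisons tested. Directions turned for genes that did not pass. On leaving out 1 library, the ventricle log2 fold change ran from -1.30 to 0.032 for Lum, from -0.45 to 0.62 for Bgn, from -0.007 to 1.57 for Prelp, from -1.92 to 0.14 for Omd and from -0.89 to 0.036 for Aspn, and the tissue one from -0.78 to 0.095 for Omd and from -0.16 to 0.007 for Optc. Bgn in ventricle had -0.001 and Chadl for tissue -0.004 with the correction alone, and Chadl -0.016 with the replicate block and the correction. The cause of these changes was not tested. Depth limits Omd in all libraries and Prelp and Dpt in ventricle.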
